A study of Setaria viridis with 11 samples.

Results

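Photosystem I is described here through 4 of the 40599 transcripts counted in leaves of the C4 grass *Setaria viridis*. PSAA (Si020785m) and PSAB (Si020848m) match plastid genes, whereas PSAK (Si031478m) and OHP2 (Si003004m) match nuclear genes. The 4 were picked by identifier, with earlier results of these data known, and all of them passed the filter on low counts. A match to a plastid gene does not say whether the reference entry lies on plastid DNA or is a copy of it in the nuclear genome, and this was not tested. All plants were wild type A10. The 6 heat-stressed plants moved at 2 weeks of age to a second chamber with days of 42 °C and nights of 32 °C, and the 5 control plants stayed in the first, with days of 28 °C and nights of 20 °C. Leaves were taken on day 28, so the heat had lasted 2 weeks. Each condition had its own chamber, so chamber and heat cannot be told apart. Each replicate is a separately numbered plant.

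Photosystem I takes electrons from plastocyanin and passes them to ferredoxin on the stromal side of the thylakoid membrane. Its heart is a dimer of the homologous proteins PsaA and PsaB, which carry most of the electron carriers and core chlorophylls and are encoded next to each other in plastid DNA (in the order rps14, psaB, psaA, ycf3 in RefSeq's annotation of *S. viridis*). The other subunits are mostly nuclear-encoded and imported: PsaD and PsaE form the docking site for ferredoxin, PsaF binds plastocyanin, PsaG and PsaK are related membrane proteins at the edge of the core, and PsaH and PsaL lie where state transitions bring light-harvesting complex II. The LHCA proteins form the antenna belt. OHP2 is a one-helix member of the light-harvesting protein family that the annotation files in the LHC-I subdivision of its photosystem I bins. In *Arabidopsis* it works with OHP1 in the assembly of photosystem II. A balanced photosystem therefore needs transcripts from 2 genomes, and the question asked of the counts was how the plastid and the nuclear share moved in heat-stressed plants.

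The plants had 34731849 to 47441261 counts under heat stress and 34362084 to 54011056 in control. A single plastid transcript, psbA, which codes for the D1 protein of photosystem II, held 46.1% to 48.5% of the counts of heat-stressed plants and 61.8% to 69.6% of those of control plants. Levels are therefore given as CPM (counts scaled to a common library total) after TMM scaling, which sets the bulk of transcripts level between plants, and fold changes are also given with library size alone. Over the 18065 transcripts tested, the log2 fold change had a median of 0.02 with TMM and 1.07 with library size, and the direction of PSAA and PSAB depends on that choice. A ratio of 2 transcripts within a plant does not depend on it. Reads with several places in the genome made up 20.2% to 30.8% of all records, assigned or set aside, in heat-stressed plants. In control plants their share was 15.4% to 59.1%. The 2 highest controls were plants 2 and 5, and results that rest on them are given without them too. Markers of both photosynthetic cell types of a C4 leaf were present. The summed level of the 2 tested of 3 listed mesophyll markers was 5361 to 15081 CPM in heat-stressed and 13616 to 19718 CPM in control plants. The sum of 6 bundle sheath markers was 251 to 720 CPM in heat-stressed and 816 to 1056 CPM in control plants, and no marker of either list was at 0 in the counts. The log2 ratio of the mesophyll to the bundle sheath sum was 3.92 to 4.41 in heat-stressed and 3.84 to 4.47 in control plants. With library size alone the median log2 fold change was 0.14 for the mesophyll and 0.10 for the bundle sheath markers. The part of cell makeup in the results was not tested, and in whole leaves fewer cells of a type and less RNA per cell cannot be told apart.

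PSAA and PSAB did not pass the test. Counting error is small for both, with 732928 to 1336831 raw counts of PSAA in heat-stressed and 362316 to 863557 in control plants. PSAA, a reaction centre subunit, had 16406, 18421, 22238, 20120, 14267 and 17350 CPM in heat-stressed plants 1 to 6, against 21446, 18312, 25183, 24352 and 15088 CPM in control plants 1 to 5. The groups overlapped over most of their range, and the lowest plant of each was number 5. The mean was 18134 ± 2808 CPM (SD, n = 6) under heat stress and 20876 ± 4214 CPM (SD, n = 5) in control, a log2 fold change of -0.20 (SE 0.19, edgeR adjusted p = 0.365). PSAB, its partner in the dimer, had 16597, 17518, 19622, 20659, 12896 and 18634 CPM in heat-stressed plants, against 22184, 18617, 25040, 22671 and 16158 CPM in control plants. Here too the groups overlapped, with a log2 fold change of -0.25 (SE 0.18, edgeR adjusted p = 0.255). Without control plants 2 and 5 the log2 fold changes were -0.39 for PSAA and -0.41 for PSAB. Neither passed (edgeR adjusted p = 0.101 and 0.0894). With library size alone both were higher in heat-stressed plants, by 0.82 for PSAA (edgeR adjusted p = 0.00243) and 0.79 for PSAB (edgeR adjusted p = 0.00218) on the log2 scale. Both values lie below the median of 1.07 that all transcripts had on that scale. Once psbA was removed from the library sizes the log2 fold changes were 0.18 for PSAA and 0.15 for PSAB, and neither passed (edgeR adjusted p = 0.393 and 0.482).

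PSAK and OHP2 fell in heat-stressed plants. PSAK had 114, 70.9, 177, 91.9, 197 and 149 CPM in heat-stressed plants, against 364, 438, 379, 324 and 498 CPM in control plants. Every heat-stressed plant lay below every control plant, and the spread was wide under heat stress, from 70.9 CPM in plant 2 to 197 CPM in plant 5. The mean was 133 ± 49.4 CPM (SD, n = 6) under heat stress and 401 ± 68.2 CPM (SD, n = 5) in control, a log2 fold change of -1.59 (SE 0.23, edgeR adjusted p = 3.85e-05). OHP2 is the least counted of the 4, with 425 to 810 raw counts in heat-stressed and 511 to 907 in control plants. It had 10.7, 10.15, 11.7, 8.42, 15.8 and 13.2 CPM in heat-stressed plants, against 21.95, 25.8, 23.7, 21.5 and 26.9 CPM in control plants. The groups did not overlap, the highest heat-stressed plant again being number 5. The mean was 11.7 ± 2.57 CPM (SD, n = 6) under heat stress and 24.0 ± 2.37 CPM (SD, n = 5) in control, a log2 fold change of -1.04 (SE 0.14, edgeR adjusted p = 1.71e-05).

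Thus 2 of the 4 transcripts fell and none rose. Of all tested transcripts 63.1% passed, 30.9% falling and 32.2% rising. Every heat-stressed plant lay below every control plant in 21.4% and above every control plant in 23.5% of them. PSAK still fell with library size alone, by 0.54 on the log2 scale (edgeR adjusted p = 0.0263), where 7.67% of all transcripts fell and 73.2% rose. OHP2 was at 0.01 on that scale (edgeR adjusted p = 0.956), so its fall is one relative to the bulk of transcripts. With library size alone the groups of PSAK and OHP2 overlapped. PSAK had 106 to 261 CPM in heat-stressed and 214 to 311 CPM in control plants. OHP2 had 12.2 to 20.9 CPM in heat-stressed and 12.9 to 18.8 CPM in control plants. With psbA removed from the library sizes both fell, PSAK by 1.21 and OHP2 by 0.65 on the log2 scale (edgeR adjusted p = 1.37e-04 and 4.02e-04).

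**Figure D1:**
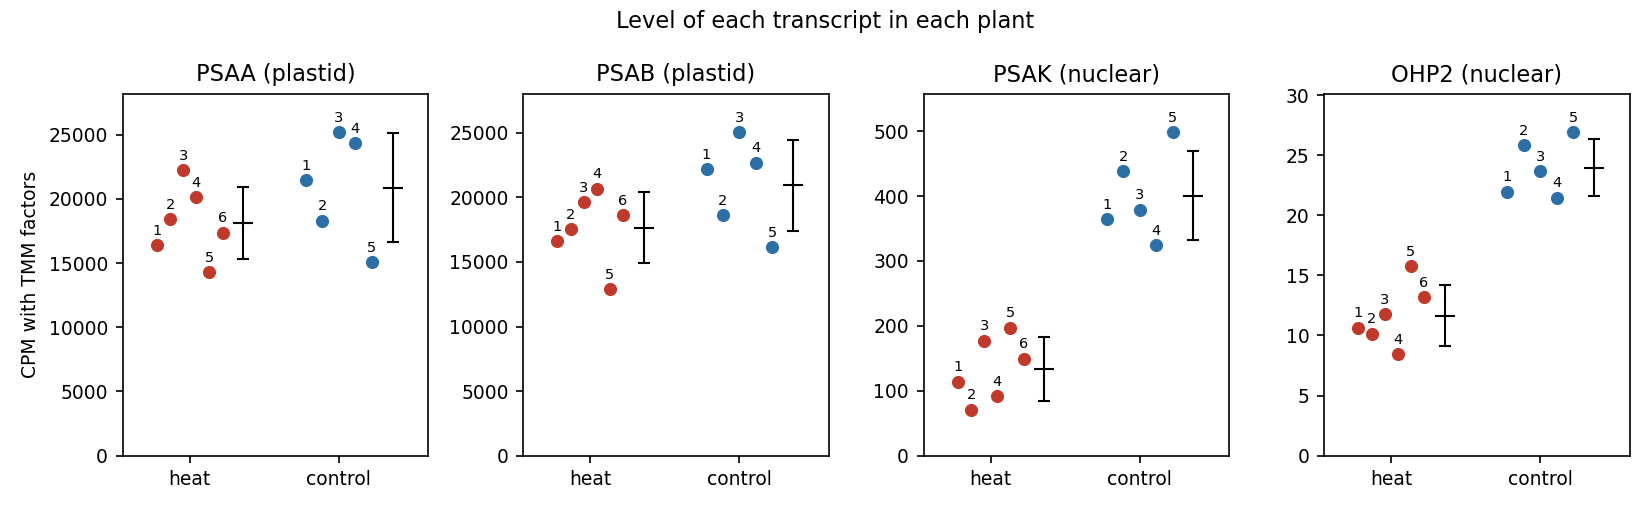
Level of PSAA, PSAB, PSAK and OHP2 (CPM with TMM factors, linear axes from 0) in each of 6 heat-stressed and 5 control plants; numbers are plant numbers, the dash is the group mean and the bars are ± 1 SD. The groups overlap for the plastid pair, whereas PSAK and OHP2 are lower in all 6 heat-stressed plants than in any control plant.

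The PSAA to PSAB ratio was close to 1 in every plant. In heat-stressed plants the log2 ratio of their counts was -0.02, 0.07, 0.18, -0.04, 0.15 and -0.10, against -0.05, -0.02, 0.01, 0.10 and -0.10 in control plants. As plain ratios these run from 0.931 to 1.13 under heat stress and from 0.934 to 1.07 in control. Heat-stressed plants 3 and 5 lay above and plant 6 just below the control range. The mean log2 ratio was 0.04 ± 0.11 (SD, n = 6) under heat stress and -0.01 ± 0.08 (SD, n = 5) in control. The difference of 0.05 had a 95% interval of -0.08 to 0.19 and did not pass (exact permutation test, 2-sided, p = 0.407). The interval holds changes of the ratio up to 0.19 on the log2 scale, so a small shift is not excluded by these plants. A count ratio also depends on the lengths of the 2 transcripts, so only its change between groups can be read.

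The nuclear transcripts fell relative to the plastid pair. The kit named for the libraries is commonly used with poly(A) selection, which few plastid transcripts pass, whereas the study describes removal of ribosomal RNA. A plastid count may therefore stand for a selected fraction of plastid RNA, in plants of both groups. The log2 ratio of PSAK to PSAA was -7.17, -8.02, -6.97, -7.77, -6.18 and -6.86 in heat-stressed plants, against -5.88, -5.39, -6.06, -6.23 and -4.92 in control plants. All heat-stressed plants except plant 5 were below the whole control range. In mean, PSAK had 0.698 counts per 100 counts of PSAA under heat stress and 1.93 in control (geometric means), 2.77-fold lower in heat-stressed plants. The log2 difference was -1.47 (95% interval -2.32 to -0.62, exact permutation p = 0.00866, adjusted over 6 ratios 0.0260). For PSAK to PSAB it was -1.42 (-2.24 to -0.57, exact permutation p = 0.0130, adjusted 0.0260). The log2 ratio of OHP2 to PSAA was -10.59, -10.83, -10.89, -11.22, -9.82 and -10.36 in heat-stressed plants, against -9.93, -9.47, -10.05, -10.15 and -9.13 in control plants. Again 5 of 6 heat-stressed plants were below every control plant. The log2 difference was -0.87 (-1.49 to -0.22, exact permutation p = 0.0216, adjusted 0.0260), and for OHP2 to PSAB it was -0.82 (-1.37 to -0.17, exact permutation p = 0.0173, adjusted 0.0260).

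Control plants 2 and 5 had the highest of these 4 ratios among controls. Without both, the difference for PSAK to PSAA was -1.11 (exact permutation p = 0.0476), that for PSAK to PSAB was -1.09 (exact permutation p = 0.0714), and those for OHP2 were -0.57 and -0.55 (exact permutation p = 0.119 for PSAA and 0.0952 for PSAB). These p-values are unadjusted, and with 6 plants against 3 the smallest possible is 0.0238. Without control plant 2 alone, or control plant 5 alone, the p adjusted over the 6 ratios was 0.0571 for each of these 4 ratios and for PSAK to OHP2, so none of them passed after adjustment. Without any other single plant all 5 passed after adjustment. The part of the plants' alignment rates in these ratios was not tested.

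Summed over the pair, each heat-stressed plant had 265, 443, 222, 406, 128 and 221 plastid counts (PSAA plus PSAB) per nuclear count (PSAK plus OHP2), against 113, 79.6, 125, 136 and 59.5 in control plants. Plant 5 was the lowest of each group. PSAK held most of the nuclear counts in every plant, for example 4616 of 5277 in heat-stressed plant 2 and 8669 of 9180 in control plant 2. These sums therefore mainly follow PSAK. The mean log2 level of the nuclear pair minus that of the plastid pair was -8.87 ± 0.57 (SD, n = 6) under heat stress and -7.73 ± 0.45 (SD, n = 5) in control, given as a description. PSAA and PSAB together took 3.60% to 5.93% of all counts under heat stress and 1.95% to 3.98% in control. Without psbA in the total, the shares were 6.90% to 11.1% under heat stress and 6.37% to 10.4% in control, ranges that nearly coincide.

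The 2 nuclear transcripts also parted from each other. The log2 ratio of PSAK to OHP2 was 3.42, 2.80, 3.91, 3.45, 3.64 and 3.50 in heat-stressed plants, against 4.05, 4.08, 4.00, 3.92 and 4.21 in control plants. The groups did not overlap, though heat-stressed plant 3 came within 0.01 of control plant 4. There were 10.96 counts of PSAK per count of OHP2 under heat stress and 16.6 in control (geometric means). The log2 difference was -0.60 (95% interval -0.99 to -0.28, exact permutation p = 0.00433, the smallest the design allows, adjusted 0.0260), and PSAK was relatively lower in 6 of 6 heat-stressed plants. Without control plants 2 and 5 it was -0.53 (exact permutation p = 0.0238).

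**Figure D2:**
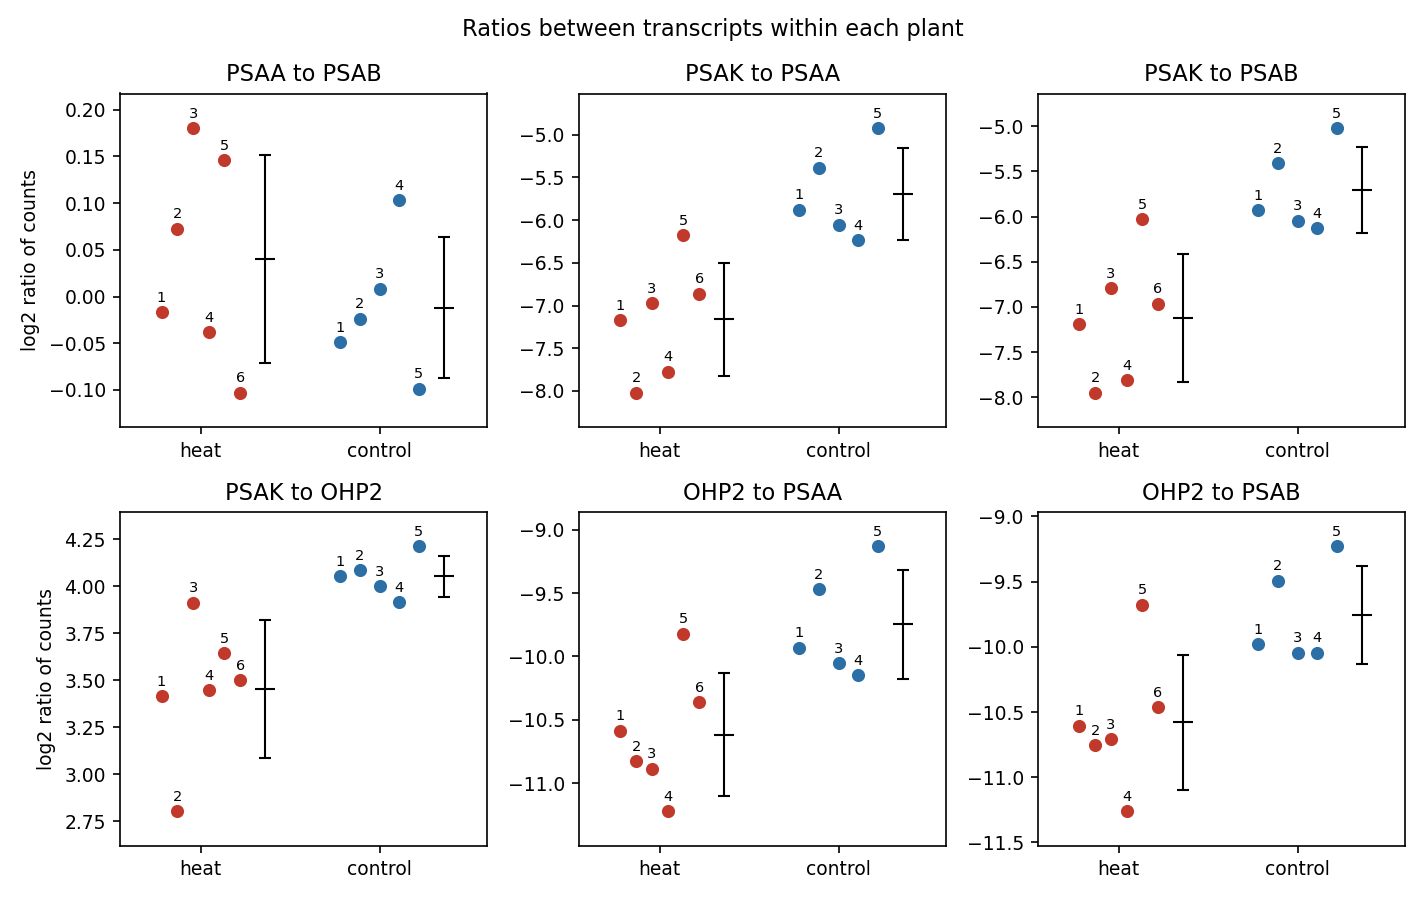
Log2 ratio of counts for the 6 pairs of PSAA, PSAB, PSAK and OHP2 in each of 6 heat-stressed and 5 control plants; numbers are plant numbers, the dash is the group mean and the bars are ± 1 SD, and each panel has its own vertical axis. The PSAA to PSAB ratio overlaps between groups, the nuclear to plastid ratios overlap only through heat-stressed plant 5, and PSAK to OHP2 does not overlap.

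Across the 11 plants the members moved in 2 pairs. The log2 levels of PSAA and PSAB had Pearson's r = 0.94, and r = 0.93 once the group means were removed. For PSAK and OHP2 r was 0.97, and 0.83 within groups. Between a nuclear and a plastid transcript r was 0.12 to 0.24, and within groups it was -0.70 to -0.40, so that plants with more of the plastid pair tended to have less of the nuclear pair. Heat-stressed plant 5 and control plant 5 show it most plainly, with the lowest PSAA and the highest PSAK of their groups. These values are a description over 11 plants that share library totals and scaling factors.

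Among 4096 transcripts with a mean of at least 10 CPM, the 3 most like PSAK by Pearson's r over the 11 plants were PSAD-1 (r = 0.997), Si002920m (r = 0.995) and PSAL (r = 0.991). The pattern of PSAK was thus closest to that of a pair of other nuclear photosystem I subunits and Si002920m. That transcript has no name in the part of the annotation used here. Most like PSAA was Si020893m (r = 0.99), also without a name in that part, and most like PSAB was Si037249m (r = 0.95), a second transcript that matches psaB. Most like OHP2 was Si020811m (r = 0.997), which has no name there either.

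The other nuclear-encoded core subunits tested fell too. The study's annotation puts 26 transcripts in its photosystem I bins, of which 12 had no count in any plant and 11 were tested. None of the 11 rose and 6 fell, with a median log2 fold change of -1.04, against 0.02 for all transcripts, of which 30.9% fell. With library size alone 4 of the 11 rose (PSAA, PSAB, Si037249m and APO4) and 1 fell (PSAK), with a median of 0.01, against 1.07 for all. On that scale 73.2% of all transcripts rose and 7.67% fell. The 6 that fell with TMM were PSAK, OHP2 and the 4 other nuclear-encoded core subunits tested. PSAD-1, a ferredoxin docking subunit, averaged 419 ± 122 CPM under heat stress (n = 6) and 936 ± 117 CPM in control (n = 5), a log2 fold change of -1.16 (SE 0.19, edgeR adjusted p = 9.30e-05). PSAL averaged 465 ± 155 CPM in heat-stressed plants and 1027 ± 155 CPM in control plants, a log2 fold change of -1.14 (SE 0.21, edgeR adjusted p = 2.45e-04). Its neighbour in the complex, PSAH2, averaged 189 ± 66.6 CPM under heat stress and 425 ± 75.4 CPM in control, a log2 fold change of -1.17 (SE 0.22, edgeR adjusted p = 3.21e-04). PSAG, the relative of PSAK, averaged 208 ± 81.5 CPM in heat-stressed plants and 473 ± 85.7 CPM in control plants, a log2 fold change of -1.18 (SE 0.24, edgeR adjusted p = 7.22e-04). In each of these 4 subunits the groups did not overlap with TMM. Of all transcripts, 21.4% had every heat-stressed plant below every control plant. With library size alone the groups of all 4 subunits overlapped. PSAD-1, for example, had 380 to 788 CPM in heat-stressed and 503 to 716 CPM in control plants. The log2 fold changes of the 4 subunits were -0.13 to -0.10 with library size alone and none passed, while the median of all transcripts was 1.07.

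Of the remaining tested transcripts in the bins, Si037249m had 1375 ± 177 CPM under heat stress and 1566 ± 227 CPM in control, a log2 fold change of -0.19 (edgeR adjusted p = 0.234). Its counts equalled 7.82% of those of PSAB in heat-stressed plants and 7.50% in control plants (geometric means), a log2 difference of 0.06 (95% interval -0.05 to 0.18, exact permutation p = 0.290). PTAC8 (Si037757m), known in *Arabidopsis* as the thylakoid protein CURT1B and once named PsaP, had 1.65 ± 0.65 CPM in heat-stressed and 2.27 ± 1.36 CPM in control plants (log2 fold change -0.48, edgeR adjusted p = 0.293). Leaving out control plant 3, its highest control, gave -0.12 for PTAC8, and leaving out other single plants gave as low as -0.69, none past the threshold. APO4, a relative of the plastid splicing factor APO1, stood at 2.25 ± 0.19 CPM in heat-stressed and 1.98 ± 0.27 CPM in control plants (log2 fold change 0.18, edgeR adjusted p = 0.243). APO4 rose by 1.21 with library size alone and by 0.57 with psbA removed from the library sizes (edgeR adjusted p = 3.62e-05 and 0.00523). The 15 transcripts of the bins that were not tested had at most 6 counts in any plant. They include every transcript listed for PSAE-2, PSAF, PSAN and PSAO. Each of these subunits is listed with several transcripts, and in union mode HTSeq sets aside a read that lies on more than 1 feature. Ambiguous reads made up 7.99% to 9.55% of all records, assigned or set aside, in heat-stressed plants and 3.05% to 8.48% in control plants. Their part in the low counts of these subunits was not tested.

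PSAK fell further than the other core subunits. Ratios within plants, added once their levels were known, put PSAK lower against each of the 4 in 6 of 6 heat-stressed plants. The log2 ratio of PSAK to PSAG was -0.69, -0.53, -0.48, -0.67, -0.74 and -0.70 in heat-stressed plants, against -0.21, -0.36, -0.16, -0.26 and -0.19 in control plants. The groups were apart, with a difference of -0.40 (95% interval -0.52 to -0.27). The difference was -0.44 against PSAH2 (-0.58 to -0.27), -0.46 against PSAD-1 (-0.63 to -0.28) and -0.47 against PSAL (-0.63 to -0.31). All 4 had exact permutation p = 0.00433, the smallest possible, and 0.00779 after adjustment over the 9 added ratios. Without control plants 2 and 5 they were -0.46 to -0.42 (exact permutation p = 0.0238 for each).

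A list of LHCA transcripts, the light-harvesting antenna of photosystem I, was gathered by gene name. It holds 8 transcripts, of which 4 were tested, 3 fell and none rose with TMM, where 30.9% of all transcripts fell. With library size alone 2 rose, LHCA1 by 0.52 and LHCA6 by 1.17 on the log2 scale (edgeR adjusted p = 0.0190 and 0.00512), and LHCA5 fell by 0.47 (edgeR adjusted p = 0.0232). Of all transcripts 73.2% rose and 7.67% fell with library size alone. LHCA5, a minor antenna protein, averaged 30.3 ± 9.23 CPM under heat stress (n = 6) and 86.5 ± 9.06 CPM in control (n = 5), a log2 fold change of -1.51 (SE 0.19, edgeR adjusted p = 8.39e-06). LHCA4 averaged 514 ± 157 CPM in heat-stressed plants and 950 ± 97.3 CPM in control plants, a log2 fold change of -0.89 (SE 0.19, edgeR adjusted p = 0.00114). LHCA1, which pairs with LHCA4 in the belt, averaged 267 ± 78.4 CPM under heat stress and 384 ± 46.9 CPM in control, and its groups overlapped. Its log2 fold change of -0.52 (SE 0.18, edgeR adjusted p = 0.0224) did not pass without control plant 5 or without heat-stressed plant 1, 2, 4 or 6 (-0.49 to -0.38, edgeR adjusted p = 0.0531 to 0.0728). LHCA6 was near the limit of detection at 0.41 ± 0.18 CPM in heat-stressed and 0.38 ± 0.15 CPM in control plants (edgeR adjusted p = 0.798).

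OHP2 was also set against its *Arabidopsis* partner OHP1, a transcript chosen after its values were seen. OHP1 (OHP, Si038118m) averaged 32.0 ± 6.01 CPM under heat stress and 39.1 ± 4.64 CPM in control, a log2 fold change of -0.29 that did not pass (SE 0.13, edgeR adjusted p = 0.0641). It passed without control plant 4 or heat-stressed plant 3 (-0.36 and -0.35, edgeR adjusted p = 0.0292 and 0.0194). The log2 ratio of OHP2 to OHP1 was -1.50, -1.33, -1.81, -1.68, -1.22 and -1.26 in heat-stressed plants, against -0.98, -0.68, -0.65, -0.57 and -0.64 in control plants. Every heat-stressed plant lay below every control plant. OHP2 had 0.362 counts per count of OHP1 under heat stress and 0.614 in control (geometric means), a log2 difference of -0.76 (95% interval -1.08 to -0.47, exact permutation p = 0.00433, adjusted 0.00779). Without control plants 2 and 5 it was -0.73 (exact permutation p = 0.0238).

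**Figure D3:**
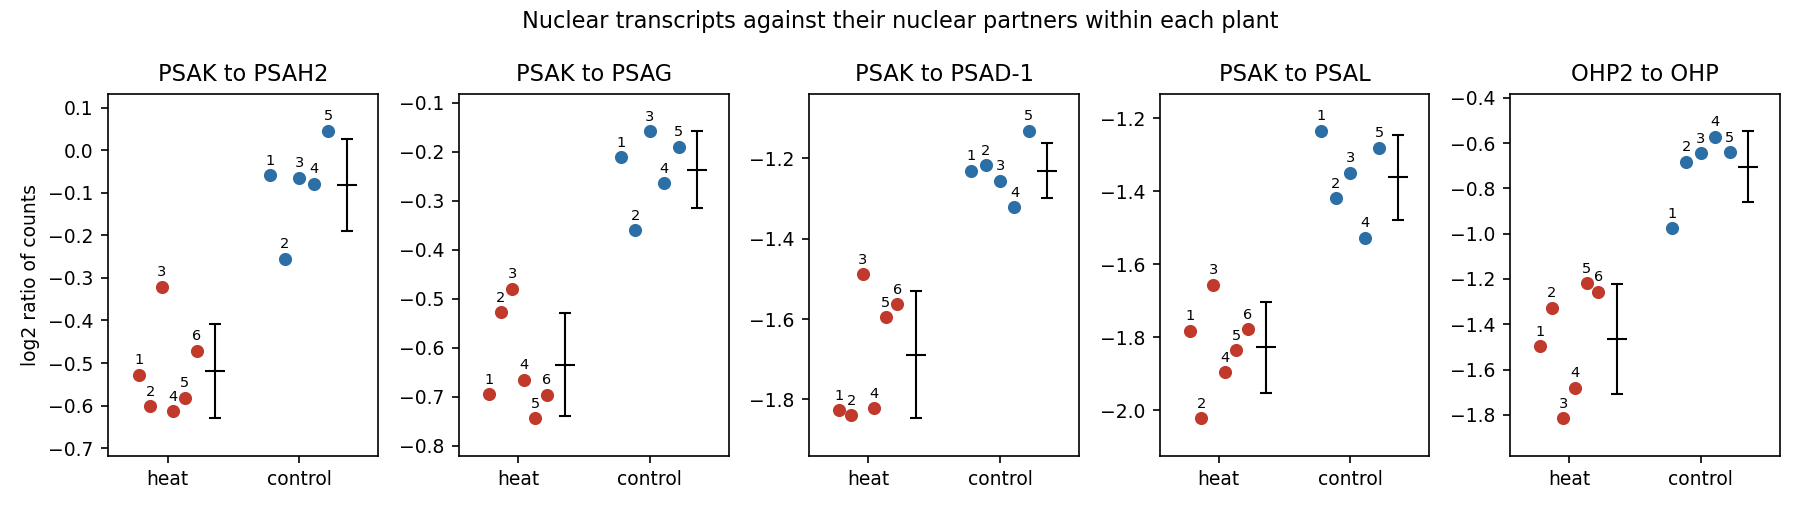
Log2 ratio of counts of PSAK to 4 other nuclear photosystem I subunits, and of OHP2 to OHP1 (labelled OHP), in each of 6 heat-stressed and 5 control plants; numbers are plant numbers, the dash is the group mean, the bars are ± 1 SD and each panel has its own vertical axis. All 6 heat-stressed plants lie below all 5 control plants in each panel.

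The log2 fold changes of the photosystem I pair lay above the median of the plastid transcripts. Of 39 transcripts matched to plastid genes, 36 were tested, 28 fell and 2 rose, with a median log2 fold change of -1.33. Without PSAA and PSAB the median of the other 34 was -1.35. Of all tested transcripts 63.1% passed, 30.9% falling and 32.2% rising. Of the 36, 6 had a higher log2 fold change than PSAA and 29 a lower one. Transcripts of the other thylakoid complexes fell in all 4 of 4 tested for cytochrome b6f, in all 5 of 5 for ATP synthase, in 13 of 15 for the NDH complex (the other 2 rose) and in 5 of 8 for photosystem II. The 2 that rose, both counted here with the NDH complex, match NDHJ (Si020781m) and PSBG (Si020760m). Their log2 fold changes were 1.099 and 1.27 (edgeR adjusted p = 0.00554 and 4.00e-04), while another PSBG match, Si020825m, fell by 0.95 on the log2 scale. The 6 that did not pass match psaA, psaB and 2 photosystem II genes, PSBC and PSBD. Thus PSAA, PSAB and Si037249m make up 3 of the 6. Of the 36, 10 rose and 14 fell with library size alone, where 73.2% of all transcripts rose and 7.67% fell.

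Within plants, PSAA was compared with 3 abundant plastid transcripts, a choice made after their fold changes were known. PSBB, which codes for the CP47 core antenna of photosystem II, had a log2 fold change of -0.53 (SE 0.15, edgeR adjusted p = 0.00647). The log2 ratio of PSAA to PSBB was 0.24, 0.42, 0.49, 0.47, 0.04 and 0.33 in heat-stressed plants, against -0.12, -0.15, 0.26, 0.24 and -0.22 in control plants. It was higher than in every control in 4 of 6 heat-stressed plants, with a difference of 0.33 (95% interval 0.07 to 0.62, exact permutation p = 0.0303, adjusted 0.0455). Over single plants left out it was 0.27 to 0.39, and the adjusted p was at or above the threshold (up to 0.100) in 8 of 11 cases, all but heat-stressed plant 5 and control plants 3 and 4. Without both control plants 2 and 5 it was 0.20 (exact permutation p = 0.167, unadjusted). For the large Rubisco subunit RBCL, which had a log2 fold change of -0.61 (edgeR adjusted p = 0.00474), the difference of the PSAA ratio was 0.41 (-0.03 to 0.85, exact permutation p = 0.0779, adjusted 0.100). Over single plants left out it was 0.29 to 0.51 (exact permutation p = 0.0476 to 0.171), and none passed after adjustment. For PSBD, the D2 protein, which had a log2 fold change of -0.09 (edgeR adjusted p = 0.672), the difference was -0.11 (-0.54 to 0.27, exact permutation p = 0.537). PSBA fell by 1.58 on the log2 scale (edgeR adjusted p = 3.47e-04).

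**Figure D4:**
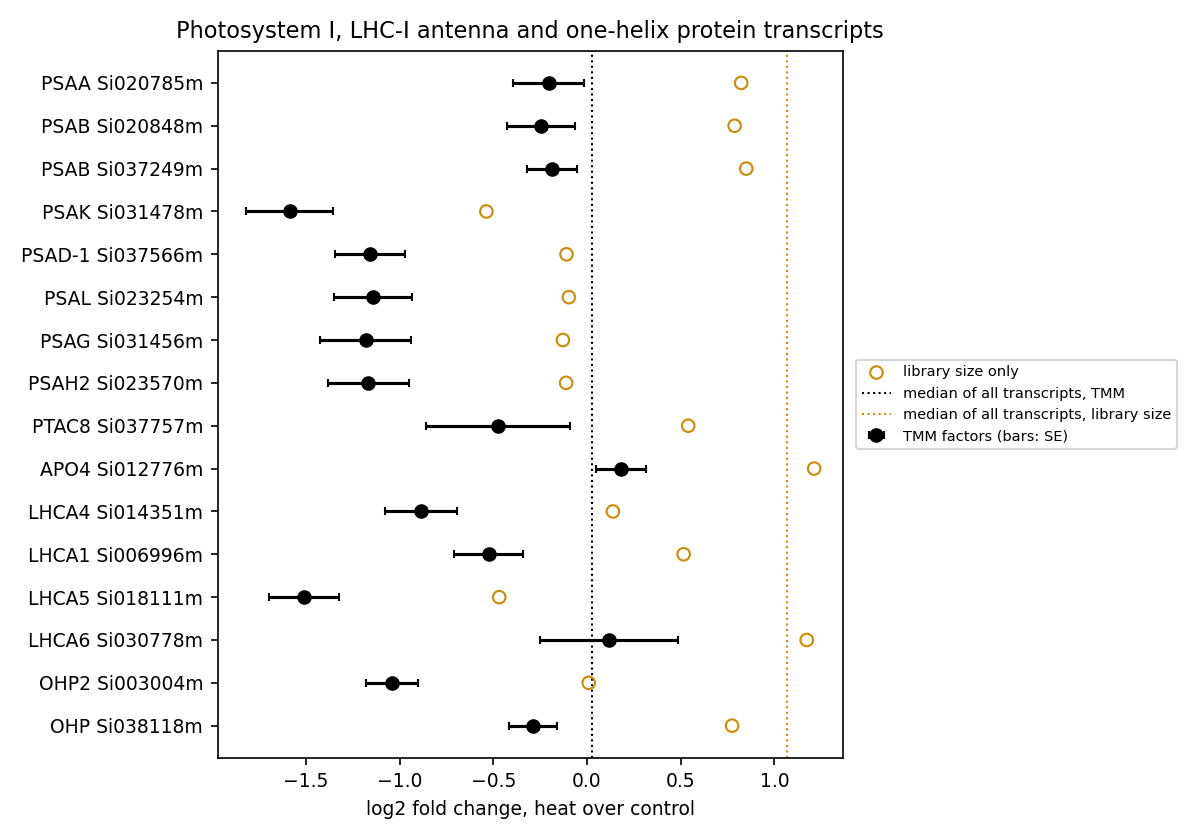
Log2 fold change, heat over control, of the tested transcripts of the photosystem I bins, the LHC-I antenna and OHP1 (labelled OHP), with TMM factors (filled, bars ± 1 SE) and with library size alone (open, no bars); dotted lines are the medians of all transcripts, 0.02 with TMM and 1.07 with library size. The nuclear core subunits lie at -1.59 to -1.14 and the transcripts matched to psaA and psaB at -0.25 to -0.19 with TMM, and all of them are left of the median on both scales.

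Downstream of photosystem I, electrons pass to ferredoxin and through ferredoxin-NADP reductase to NADP. The annotation's bins for these carriers list 21 transcripts, of which 13 were tested, 8 fell and 4 rose, with a median of -1.15. Of all tested transcripts 30.9% fell and 32.2% rose. Of the 13, 6 rose and 2 fell with library size alone, with a median of -0.08. Over all transcripts 73.2% rose and 7.67% fell on that scale, with a median of 1.07. The 4 that rose with TMM, named after their values were seen, include 3 matches of FD3, known in *Arabidopsis* as a root-type ferredoxin. Of these, Si039128m averaged 12.99 ± 2.27 CPM under heat stress and 5.61 ± 1.05 CPM in control, a log2 fold change of 1.204 (SE 0.15, edgeR adjusted p = 7.92e-06). The other 3 averaged under 1 CPM in both groups: FD3 Si011119m had 0.98 ± 0.43 CPM in heat-stressed and 0.40 ± 0.19 CPM in control plants, FD3 Si003262m 0.44 ± 0.19 CPM in heat-stressed and 0.019 ± 0.018 CPM in control plants, and the unnamed Si036851m 0.89 ± 0.16 CPM in heat-stressed and 0.15 ± 0.08 CPM in control plants. The reductase FNR2 averaged 611 ± 132 CPM under heat stress (n = 6) and 1758 ± 192 CPM in control (n = 5), a log2 fold change of -1.53 (SE 0.15, edgeR adjusted p = 1.14e-06). Si014626m and Si014624m both match the leaf ferredoxin FED A, so that reads of near-identical stretches may be split between them. Si014626m averaged 186 ± 69.1 CPM in heat-stressed plants and 410 ± 92.5 CPM in control plants, a log2 fold change of -1.15 (edgeR adjusted p = 0.00109). Si014624m averaged 21.3 ± 8.55 CPM in heat-stressed plants and 69.3 ± 7.89 CPM in control plants, a log2 fold change of -1.70 (edgeR adjusted p = 2.48e-05). NDF4, known in *Arabidopsis* as a subunit of the NDH complex, which joins photosystem I in cyclic electron flow, fell by 1.37 on the log2 scale (edgeR adjusted p = 1.21e-04). Si018228m and Si023105m, unnamed in the annotation's ferredoxin bin, fell by 1.32 and 0.63 (edgeR adjusted p = 1.14e-07 and 2.22e-04). The 2 that fell with library size alone were FNR2 and Si014624m, by 0.46 and 0.68 (edgeR adjusted p = 0.00428 and 0.0139).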

How the data were processed

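Transcripts were measured by RNA-seq in leaves of 11 plants. The authors used Trimmomatic for trimming, TopHat2 for alignment to the genome of the relative *S. italica*, and HTSeq in union mode for counting. The deposited values are raw counts without normalization, in 2 files per plant for read pairs and single reads, which were summed here. The 5 summary lines of each file were left out. The study's methods describe removal of ribosomal RNA before strand-specific libraries made with a TruSeq RNA kit, the kit the labels name too. That kit is commonly used with poly(A) selection, under which plastid counts would stand for a selected fraction of plastid RNA. The strand setting of the counting is not given in the sources used here.

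Of 40599 transcripts, 11054 had no count in any plant, and 18065 passed filterByExpr of edgeR 4.0.16 and were fitted with TMM factors and its quasi-likelihood test (Benjamini-Hochberg over all tested transcripts, threshold 0.05). This gave 5818 higher and 5583 lower transcripts, and SEs were taken as the log2 fold change over the root of the F statistic. Ratios within plants were compared by 2-sided exact permutation tests over 462 splits of the plants, with 95% intervals from the shifts that the test did not reject. The p-values of 6 planned and of 9 added ratios were adjusted separately. Alternatives covered scaling, filter, tool (DESeq2 1.42.0), read type, replicate block and plants left out.

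The 4 transcripts, the lists and the tests were chosen with earlier results of these data known. Named transcripts were the 4, all tested entries of the photosystem I and LHC-I lists, the 6 and 5 most abundant tested entries of the ferredoxin and plastid lists, and the 3 most like each of the 4. Gene names are those of the study's annotation, as far as it was used here. The labels do not say that a plant number links plants, and plants were treated as unpaired.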

Additional observations from a re-analysis of the deposited data

Results flagged for a closer look

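In the control group, plant 4 stood apart from the others in LHCA6 (Si030778m), with a log2 CPM of -2.42, against -1.24 to -0.86 in the other 4 control plants. LHCA6 was near the limit of detection, with 0.14 CPM in that plant. In the log2 ratio of OHP2 to OHP1, control plant 1 stood apart at -0.98, against -0.68 to -0.57 in the other 4 control plants, and it was still above all 6 heat-stressed plants. These were 2 of 88 groups checked with Dixon's test, of which chance marks about 1 in 20.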

How the results depend on the processing

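Scaling had the widest effect. With library size alone 1385 of 18065 tested transcripts fell and 13216 rose. Once psbA was removed from the library sizes, 3380 of 17793 fell and 8410 rose. Single reads alone gave 2792 lower and 3004 higher, with only 10434 transcripts tested. With library size alone the log2 fold change was 0.82 for PSAA, 0.79 for PSAB and 0.0090 for OHP2, and with psbA removed 0.18 for PSAA and 0.15 for PSAB. Among the other transcripts described above, the sign also turned with library size alone for PTAC8 (0.54), Si037249m (0.85), LHCA1 (0.52), LHCA4 (0.14), Si023105m (0.43), PSBD (0.98), RBCL (0.45), PSBB (0.53), PSBG (0.12), Si020893m (0.83), Si020811m (0.12) and OHP1 (0.77). With psbA removed it turned for Si037249m (0.20), PSBD (0.32), Si020893m (0.19) and OHP1 (0.10), and PSBD was at 0.026 among transcripts with 10 counts in every plant. These turns follow from the scaling, which moves all transcripts. Leaving out single plants gave -0.30 to -0.12 for PSAA, -0.33 to -0.14 for PSAB, -1.70 to -1.42 for PSAK and -1.12 to -0.93 for OHP2, with no change of call, and -0.12 to 0.29 for LHCA6.

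Of the ratios, PSAK to PSAB (-1.09, exact permutation p = 0.0714), OHP2 to PSAA (-0.57, p = 0.119) and OHP2 to PSAB (-0.55, p = 0.0952) did not pass without control plants 2 and 5. As differences of group medians, OHP2 to PSAA was -0.77 (exact permutation p = 0.0649) and OHP2 to PSAB -0.67 (p = 0.121). With plant number as a replicate block the ratios were -1.53 for PSAK to PSAA, -1.45 for PSAK to PSAB, -0.92 for OHP2 to PSAA, -0.84 for OHP2 to PSAB and -0.61 for PSAK to OHP2, all at exact permutation p = 0.0625, the smallest that 5 pairs allow. The block changed no call of the 4 transcripts (PSAK -1.71, OHP2 -1.10). Same-numbered plants had correlations of -0.14 to 0.29 (mean 0.14, other pairs -0.03), over 0.1 in 4 of 5 pairs, and 2 of 5 heat-stressed plants correlated best with the control plant of their own number. All 143 values of the main results with a single plant left out kept their direction, and their call where ratios are judged by unadjusted p. After adjustment over the 6 ratios, 5 ratios did not pass (0.0571) without control plant 2 or control plant 5.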
